A study of Schizosaccharomyces pombe with 9 samples.

Results

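In wild-type fission yeast of this series, 27 genes met a rule that asks for more RNA when the nitrogen source is withdrawn and not when glucose is. The rule sets 4 limits on TPM, a gene's reads per base of its length, scaled so that every library has the same total. A gene had at least 50 TPM in wild-type cells under nitrogen starvation and at least 4 times its TPM under glucose rich conditions, less than 1.5 times its glucose rich TPM under glucose starvation, and, in the library labelled *tup11∆/tup12∆* under nitrogen starvation, more than 0.5 of its wild-type value. Of 5323 features in the table, 196 passed the nitrogen limits, 43 of these stayed below the glucose limit and 28 of these passed the last one. A list of 13 genes was left out in advance, which removed 1 further gene (*fnx1*), so 27 remained. All 27 code for proteins, 17 have a symbol and 10 are known by their systematic name only.

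The series holds poly(A) RNA of *Schizosaccharomyces pombe* cultures from 3 strains, labelled WT, *tup11∆/tup12∆* and *tup11∆/tup12∆/php5∆*, each kept in 3 media for 2 h. A strain in a medium is 1 library, which makes 9. Tup11 and Tup12 are co-repressors of transcription, and Php5 is a subunit of the CCAAT-binding complex. The glucose rich and glucose starvation media were based on yeast extract, the latter with little glucose and with glycerol added. The nitrogen starvation medium was a minimal medium without a nitrogen source, supplemented with the amino acids the strains need. It therefore differed from the glucose rich medium also in lacking yeast extract, in its glucose content and in its salts and vitamins, and these differences cannot be told apart from the lack of nitrogen. The labels do not name the auxotrophic markers of each culture.

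Because each condition is 1 library, no difference was tested and no p-value is given. The reads behind each value were recovered from the TPM, and each ratio of TPM values comes with an exact Clopper-Pearson 95% interval from these reads, which covers counting error only. The libraries held between 36652045 and 54303622 reads. The lowest value of any of the 27 genes rested on 31 reads, and in nitrogen-starved wild-type cells every gene had at least 691. As a check of the labels, *tup11* had 41.9 to 67.4 TPM in wild-type libraries and at most 0.418 TPM in the others. *tup12* had 107 to 157 TPM in wild-type libraries and still 54.5 to 117 TPM in the 6 libraries labelled as lacking it, so strains are named here by their label. *php5* had 61.6 to 126 TPM in wild-type libraries, 61.6 to 124 TPM in those labelled *tup11∆/tup12∆* and 8.92 to 30.2 TPM in those labelled *tup11∆/tup12∆/php5∆*. The glucose-starved culture labelled *tup11∆/tup12∆/php5∆* stood apart: relative to the glucose rich library of the same label, the median log2 ratio over all features was −0.62, where the other strains had 0.26 and 0.14.

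Nitrogen-starved fission yeast cells stop growing, recycle their own constituents and, given a partner, mate. Part of the response is a scavenging programme in which permeases take up amino acids, peptides and nucleobases and enzymes release nitrogen from them. Yeasts turn these genes down while a preferred nitrogen source is present, and GATA-type zinc finger factors, which bind DNA around the letters GATA, are among the known regulators of nitrogen genes in yeasts. In fission yeast a GATA factor, Fep1, represses genes of iron uptake when iron is plentiful, and Tup11 is known as a partner of Fep1.

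Promoter sequences are shown first, because GATA-type factors are among the known regulators of nitrogen genes in yeasts. In the 300 bases from 250 before to 50 after the annotated gene start (RefSeq, ASM294v3), the letters GATAAG were found on either strand in 7 of the 27 promoters (25.9%), against 11.6% of 5112 promoters of all genes. Among the genes for nucleobase salvage, for amino acid and peptide uptake and for amino acid or amide use, only *uck2* and SPAC26A3.11 had it. It was absent from *fur4*, *gud1*, *ura6*, *urk1*, SPCC1620.06c, SPAC1039.01, SPCC757.13, *nrg1*, *put1* and SPBPB2B2.05, and from the iron uptake gene *str3*. The 9 matches in these 7 promoters fall on 8 places, because the promoters of *fip1* and *fio1* come from the same intergenic region. The 30 bases around each match are printed on the strand that reads GATAAG, in capitals, with 12 bases on each side. They lie at I:1840546-1840575 (*uck2*), I:4234851-4234880 (*fip1* and *fio1*), II:148139-148168 (*thi7*), I:3356461-3356490 (SPAC26A3.11), I:247192-247221 and I:247116-247145 (SPAC806.06c), and III:2311333-2311362 and III:2311497-2311526 (SPCC965.13).
uck2: aaactgaaattcGATAAGaaaaggttgatg
fip1 and fio1: tccagattggtaGATAAGcaaccgatcaaa
thi7: ccaaattgaaaaGATAAGgatcgtagacct
SPAC26A3.11: ttccatgtctttGATAAGaagaatgtcgac
SPAC806.06c, farther: atccgggatttaGATAAGcttaaatcatta
SPAC806.06c, nearer: aaacggacgaggGATAAGttgtttttctta
SPCC965.13, upstream: tcccggaaaaacGATAAGcttttctaacgt
SPCC965.13, after the start: cttcaaatcttaGATAAGagtagaggacaa

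The whole 300-base window is given for *uck2*, the gene with the highest level under nitrogen starvation, and for *fio1*, whose window covers most of the region between it and *fip1*. Both are printed on the + strand, which is the coding strand of both genes, with the match in capitals. In *uck2*, at I:1840371-1840670, the match is on the other strand and therefore reads CTTATC.
uck2: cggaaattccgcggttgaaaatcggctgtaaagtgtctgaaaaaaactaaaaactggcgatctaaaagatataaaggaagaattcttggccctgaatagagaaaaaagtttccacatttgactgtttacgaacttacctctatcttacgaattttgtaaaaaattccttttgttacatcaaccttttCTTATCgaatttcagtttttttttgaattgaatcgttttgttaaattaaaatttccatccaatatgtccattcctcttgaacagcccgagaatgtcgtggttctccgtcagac
fio1: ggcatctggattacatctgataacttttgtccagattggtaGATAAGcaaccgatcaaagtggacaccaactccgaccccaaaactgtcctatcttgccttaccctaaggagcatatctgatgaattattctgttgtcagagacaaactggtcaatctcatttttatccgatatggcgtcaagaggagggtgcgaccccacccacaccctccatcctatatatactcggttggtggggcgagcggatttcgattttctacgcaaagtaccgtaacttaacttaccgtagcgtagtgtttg

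The *fio1* window lies at I:4234822-4235121. The match between *fip1* and *fio1* begins 100 bases before the start of *fip1* and 209 bases before that of *fio1*. Other motifs were searched in the same windows on both strands. CCAAT, the letters bound by the complex that contains Php5, was in 12 promoters (44.4%) against 42.2% of all promoters. TGACTC, a Gcn4-type core, was in 2 (7.41% against 6.96%), and GTAAACA, a forkhead core, in 3 (11.1% against 16.5%). TCTTTGT, a core of the Ste11 box, and TGACGT, the core of the cAMP response element, were in 1 promoter each (3.70%), against 7.34% and 5.91% of all promoters. The stress element cores CCCCTC and CCCCGC were in 0 of the 27, against 2.11% and 1.10%. The shorter GATAA, which every GATAAG match contains and which was added after the results were known, was in 19 promoters (70.4%) against 59.5% of all. Such matches are descriptions of the letters, and no binding was measured here.

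As levels, the 27 genes spanned 59.3 TPM (*fio1*) to 7195 TPM (*uck2*) in nitrogen-starved wild-type cells. In the wild type their median level was 59.6 TPM in rich medium, 47.8 without glucose and 598 without nitrogen. The medians were 74.2, 56.2 and 608 TPM with the label *tup11∆/tup12∆* and 59.7, 28.2 and 297 with the label *tup11∆/tup12∆/php5∆*, in the same order of media. Together they took 0.347% of the TPM of wild-type cells in rich medium and 3.47% without nitrogen. The ratio of nitrogen starvation to glucose rich conditions in wild-type cells ran from 4.29 (*hht3*) to 286 (*uck2*). All 27 were over 2-fold higher in that ratio, against 19.6% of all features, and 0 over 2-fold lower, against 10.5%. Glucose starvation over rich medium in wild-type cells had 0 over 2-fold higher, against 19.1%, and 3 over 2-fold lower, against 9.86%, namely SPBPB2B2.05 at 0.133, *nrg1* at 0.241 and *ura6* at 0.485. Nitrogen over glucose starvation had 27 higher, against 9.62%, and 0 lower, against 6.01%. These libraries chose the genes, and nothing is read from the 3 sets of counts.

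**Figure D1:**
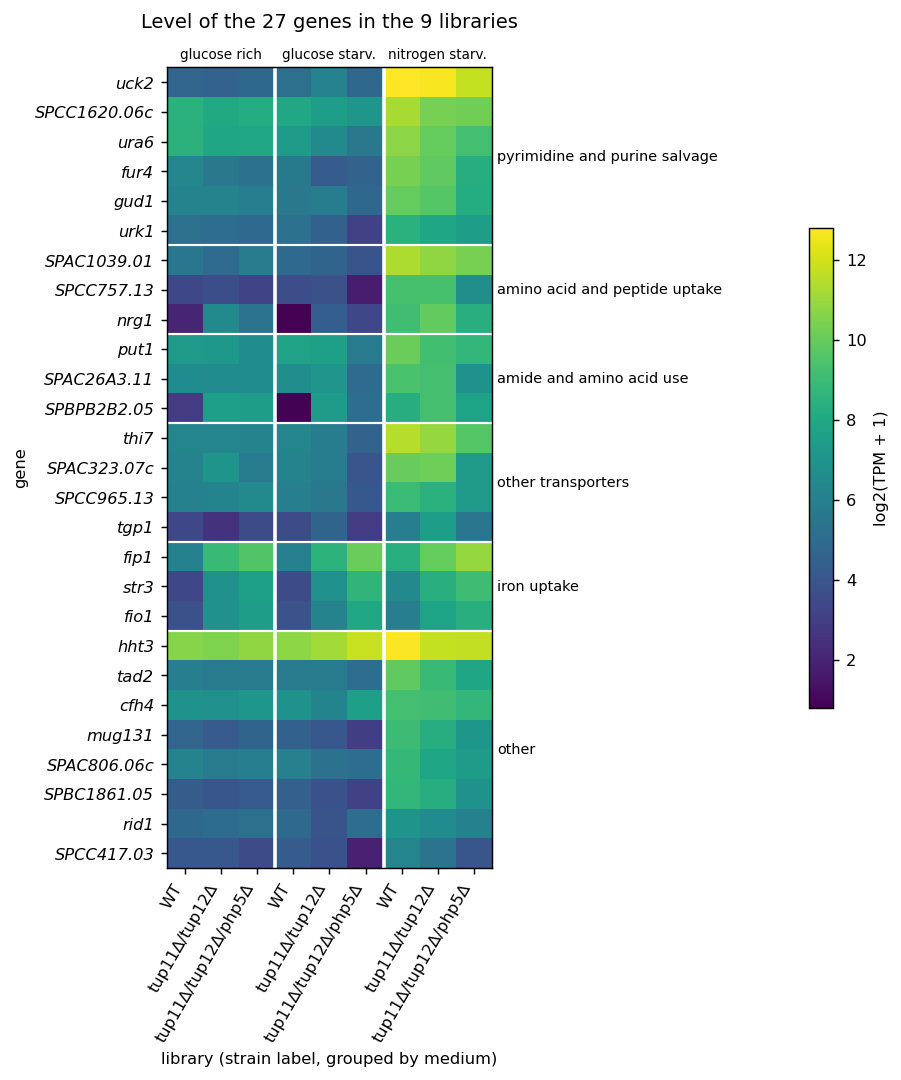
Colour gives log2(TPM + 1) of each of the 27 genes (vertical axis, grouped by role) in each of the 9 libraries (horizontal axis, 1 library per strain label and medium). The nitrogen starvation columns are the brightest for most genes. Of 27 genes, 21 have their 3 highest values there, an order that the rule fixed in part. *fip1*, *str3* and *fio1* are also bright in the mutant columns of the other media.

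The rule did not use 5 of the 9 libraries, namely all 3 labelled *tup11∆/tup12∆/php5∆* and, of those labelled *tup11∆/tup12∆*, the rich and the glucose starvation library. The 3 nitrogen starvation libraries were the 3 highest of the 9 for 21 of the 27 genes (77.8%), against 685 of 5323 features (12.9%). The limits of the rule place 2 of these 3 libraries above the rich and glucose starvation libraries of the wild type for every gene. Much of this order was thus fixed, and nothing is read from the difference to all features. The highest library of all was the wild-type one for 19 genes, that labelled *tup11∆/tup12∆* for 5 and that labelled *tup11∆/tup12∆/php5∆* for 3. Within the label *tup11∆/tup12∆/php5∆*, 20 of 27 genes were over 2-fold higher without nitrogen than in rich medium, against 15% of all features, and 0 were over 2-fold lower, against 6.84%. The median log2 ratio, computed on TPM + 1, was 1.97 for the 27 genes and 0.24 for all features. For the 7 genes that no other annotated transcript overlaps it was 1.34. All 27 ratios were above 1 and 13 were over 4. The 7 genes at or below 2-fold were SPBPB2B2.05 at 1.22 (95% interval 1.18 to 1.26), SPAC26A3.11 at 1.27, SPCC417.03 at 1.40, SPCC965.13 at 1.67, *fio1* at 1.83, *rid1* at 1.84 and *hht3* at 1.86. In the libraries labelled *tup11∆/tup12∆*, 26 of 27 were over 2-fold higher, against 28.3% of all features, with a median log2 ratio of 2.67 against 0.50. The exception was *fio1* at 1.86, and 0 were over 2-fold lower, against 9.79%. The nitrogen starvation library of that label entered the rule as a lower limit, so this count is in part fixed. Set against glucose starvation instead of rich medium, nitrogen starvation had 22 genes over 2-fold higher in the label *tup11∆/tup12∆/php5∆*, against 43.6% of all features, and 0 lower, against 3.93%. The glucose starvation library of that label is the one that stood apart. Median log2 ratios were 3.09 for the 27 genes and 0.80 for all features. In the label *tup11∆/tup12∆* the same comparison gave 26 higher, against 12.1%, and 0 lower, against 5.41%, in part fixed by the same lower limit.

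**Figure D2:**
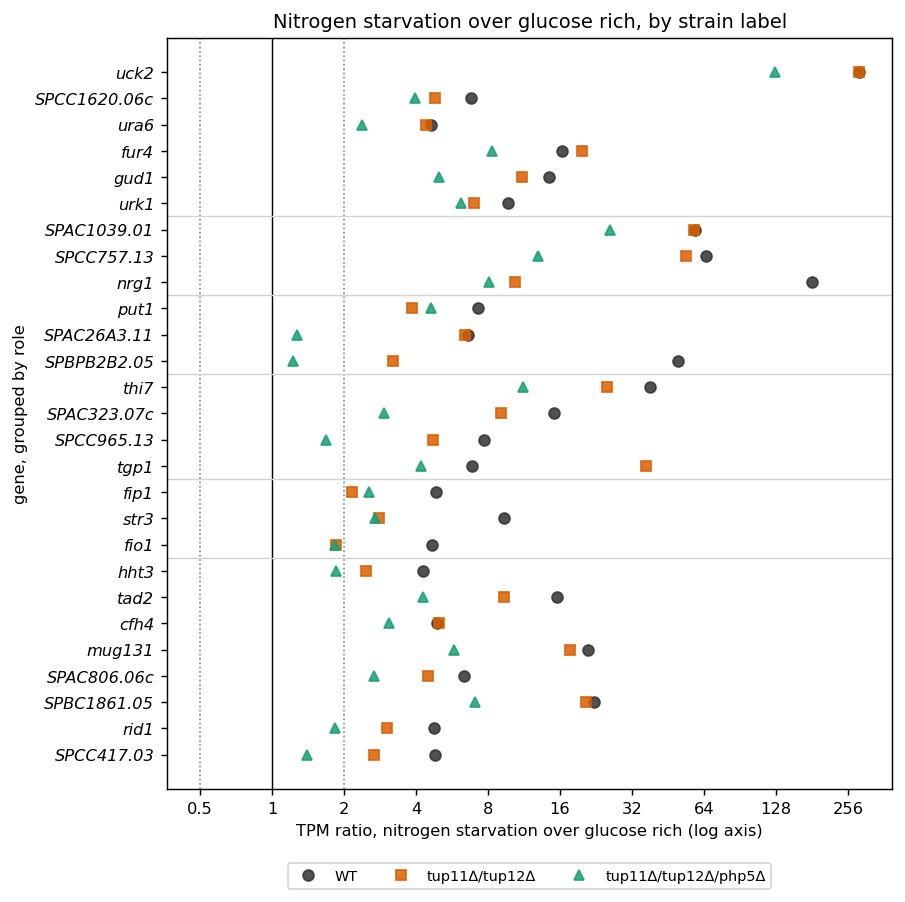
Each row is a gene, grouped by role, and each point the ratio of its TPM under nitrogen starvation to that under glucose rich conditions for 1 strain label (horizontal log axis, dotted lines at 0.5 and 2). All points lie above 1, *uck2* is farthest right for each strain label, and the *tup11∆/tup12∆/php5∆* points run from 1.22 to 126.

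The largest group consisted of 6 genes for the salvage and supply of pyrimidines and purines. In this pathway Fur4 carries uracil into the cell, a uracil phosphoribosyltransferase joins it to ribose phosphate to give UMP, a uridine kinase makes UMP from uridine, and uridylate kinase raises UMP to UDP. All 6 were over 2-fold higher without nitrogen in the label *tup11∆/tup12∆/php5∆*. From here on, values run in the order rich medium, glucose starvation, nitrogen starvation. The uracil phosphoribosyltransferase gene *uck2* (SPAC1399.04c) had 25.2, 36.2 and 7195 TPM in the wild type, against 22.9, 69.7 and 6554 with the label *tup11∆/tup12∆* and 27.5, 27.5 and 3476 with the label *tup11∆/tup12∆/php5∆*. It was thus low in all 6 libraries grown with nitrogen and higher in each of the 3 without, by 286-fold (269 to 304) in the label *tup11∆/tup12∆* and 126-fold (119 to 134) in the label *tup11∆/tup12∆/php5∆*. The uracil transporter gene *fur4* (SPAC1399.03), which lies next to it, had 79.7, 49.3 and 1296 TPM in the wild type, against 48.1, 18.8 and 949.7 with the label *tup11∆/tup12∆* and 38.0, 23.4 and 315 with the label *tup11∆/tup12∆/php5∆*. Its nitrogen to rich ratio in the last strain was 8.29 (8.02 to 8.59).

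The remaining genes of the group had higher starting levels or smaller ratios. The bifunctional uridine kinase gene *urk1* (SPCC162.11c) had 36.6, 37.8 and 356 TPM in the wild type, against 33.9, 22.2 and 236 with the label *tup11∆/tup12∆* and 28.6, 7.76 and 176 with the label *tup11∆/tup12∆/php5∆*. The uridylate kinase gene *ura6* (SPCC1795.05c) was already abundant in rich medium, with 359.9, 175 and 1667 TPM in the wild type, against 230.3, 90.6 and 1017 with the label *tup11∆/tup12∆* and 249, 46.3 and 596 with the label *tup11∆/tup12∆/php5∆*. Under glucose starvation its level was over 2-fold lower in all 3 strain labels, at 0.485 (0.470 to 0.502), 0.394 (0.377 to 0.411) and 0.186 (0.176 to 0.195) of the rich value. SPCC1620.06c codes for a ribose-phosphate pyrophosphokinase, an enzyme that makes the activated ribose phosphate used by the phosphoribosyltransferases, and had 350.1, 247 and 2384 TPM in the wild type, against 268, 183 and 1293 with the label *tup11∆/tup12∆* and 296, 143 and 1169.9 with the label *tup11∆/tup12∆/php5∆*. The guanine deaminase gene *gud1* (SPCC1672.03c), whose enzyme turns guanine into xanthine with release of ammonia, had 69.97, 47.8 and 1004 TPM in the wild type, against 72.0, 56.8 and 799 with the label *tup11∆/tup12∆* and 59.7, 28.2 and 297 with the label *tup11∆/tup12∆/php5∆*. For each of these 4 genes, nitrogen starvation gave the highest of the 3 media in every strain label. *ura4*, whose product makes UMP by the de novo route, was listed at 0 TPM in the 3 wild-type libraries and had 36.1 to 179 TPM in the others. Its part in the values of the pyrimidine genes was not tested.

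As a look at salvage genes outside the set, 28 features were picked by words in their product names after values had been seen. The words also caught genes of other roles, such as the uracil DNA glycosylase genes *ung1* and *thp1* and the pseudouridylate synthase gene *cbf5*. The counts below are therefore not those of salvage genes alone. The 28 included 5 of the 27 genes, whose rise in nitrogen-starved wild-type cells the rule had fixed (the pyrophosphokinase name was not searched). In the wild type, nitrogen starvation had 16 of the 28 over 2-fold higher, against 19.6% of all features, and 2 over 2-fold lower, against 10.5%, and glucose starvation had 8 over 2-fold higher, against 19.1%. The 2 lower were the adenine phosphoribosyltransferase gene *apt1*, at 0.107 of the rich value, and *cbf5*, at 0.355. With the labels *tup11∆/tup12∆* and *tup11∆/tup12∆/php5∆*, nitrogen starvation had 14 and 12 over 2-fold higher, against 28.3% and 15% of all features. The most abundant was *urg2*, annotated as a putative uracil phosphoribosyltransferase, which went from 39.9 to 34017 TPM in wild-type cells. It stayed outside the set because it had 63.8 TPM under glucose starvation and 15702 TPM in the nitrogen starvation library labelled *tup11∆/tup12∆*. The cytidine deaminase gene *cdd1*, with 71.6, 177 and 3732 TPM in the wild type, and the xanthine dioxygenase gene *xan1*, with 14.8, 83.0 and 4253 TPM, were above the glucose limit.

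Uptake of amino acids and peptides was represented by 3 permease genes, all with low values in rich medium. SPAC1039.01, an amino acid permease gene, had 44.7, 29.1 and 2614 TPM in the wild type, against 30.5, 24.8 and 1779 with the label *tup11∆/tup12∆* and 50.4, 13.9 and 1300.3 with the label *tup11∆/tup12∆/php5∆*. Its nitrogen to rich ratio was 25.8 (25.1 to 26.6) in the label *tup11∆/tup12∆/php5∆*, the second highest of the 27. SPCC757.13, a dipeptide transporter gene, had 9.72, 11.4 and 633 TPM in the wild type, against 11.7, 12.9 and 633 with the label *tup11∆/tup12∆* and 8.22, 2.25 and 106 with the label *tup11∆/tup12∆/php5∆*. Nitrogen starvation values of the wild type and the label *tup11∆/tup12∆* were thus close in TPM as deposited. Their ratio had an interval from 0.988 to 1.01, which covers counting error only and neither scaling nor the spread between cultures. Under nitrogen starvation the label *tup11∆/tup12∆/php5∆* was at 0.167 (0.163 to 0.172) of the label *tup11∆/tup12∆*. *nrg1* (SPBPB2B2.01), an amino acid permease gene, had 3.05, 0.734 and 552 TPM in the wild type, against 93.1, 19.8 and 969 with the label *tup11∆/tup12∆* and 40.7, 9.15 and 329 with the label *tup11∆/tup12∆/php5∆*. Both mutant labels had more of it in rich medium and under glucose starvation than wild-type cells, and in all 3 strain labels glucose starvation was its lowest medium.

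Genes for the use of amino acids and amides numbered 3. *put1* (SPCC70.03c) codes for proline dehydrogenase, the first enzyme of proline breakdown, and had 154, 212 and 1121 TPM in the wild type, against 147, 194 and 568 with the label *tup11∆/tup12∆* and 93.9, 50.2 and 435 with the label *tup11∆/tup12∆/php5∆*. Its ratio in the last strain, 4.63 (4.52 to 4.75), was above that in the label *tup11∆/tup12∆*, 3.87 (3.79 to 3.94). SPAC26A3.11, annotated as a mitochondrial omega-amidase, an enzyme that removes the amide group of keto acid amides, had 99.97, 102 and 660.1 TPM in the wild type, against 94.8, 131 and 608 with the label *tup11∆/tup12∆* and 99.3, 31.3 and 126 with the label *tup11∆/tup12∆/php5∆*. Nitrogen starvation thus exceeded rich medium 6.41-fold (6.24 to 6.59) in the label *tup11∆/tup12∆* and 1.27-fold (1.22 to 1.32) in the label *tup11∆/tup12∆/php5∆*. SPBPB2B2.05, of the class I glutamine amidotransferase family, had 6.27, 0.834 and 312 TPM in the wild type, against 190.4, 174 and 612 with the label *tup11∆/tup12∆* and 179, 33.1 and 218 with the label *tup11∆/tup12∆/php5∆*. Its lowest values were those of the wild type in the media with nitrogen, and in the label *tup11∆/tup12∆/php5∆* nitrogen starvation exceeded rich medium by 1.22-fold.

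Transporters of other substrates formed a group of 4. *thi7* (SPBC1683.05), annotated as transporter Thi7, had 75.8, 75.6 and 2875 TPM in the wild type, against 76.6, 56.8 and 1933 with the label *tup11∆/tup12∆* and 71.8, 24.0 and 803 with the label *tup11∆/tup12∆/php5∆*. SPAC323.07c, of the MatE family, had 69.9, 70.1 and 1052 TPM in the wild type, against 127, 56.2 and 1154 with the label *tup11∆/tup12∆* and 50.8, 14.8 and 149 with the label *tup11∆/tup12∆/php5∆*. Under nitrogen starvation its value in the label *tup11∆/tup12∆/php5∆* was the lowest relative to the label *tup11∆/tup12∆* of all 27 genes, at 0.129 (0.126 to 0.132). SPCC965.13, a membrane transporter of the pyridoxal family, had 66.7, 61.1 and 512 TPM in the wild type, against 74.2, 48.3 and 350.2 with the label *tup11∆/tup12∆* and 88.9, 16.1 and 149 with the label *tup11∆/tup12∆/php5∆*. *tgp1* (SPBC1271.09), whose protein takes up glycerophosphodiesters, had 9.19, 10.8 and 63.0 TPM in the wild type, against 4.92, 24.0 and 179.7 with the label *tup11∆/tup12∆* and 10.7, 6.32 and 44.8 with the label *tup11∆/tup12∆/php5∆*. It was the only gene of the group whose glucose starvation value was over 2-fold above the rich value in any strain label, at 4.89-fold (4.45 to 5.39) in the label *tup11∆/tup12∆*.

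The 3 iron uptake genes differed from the rest in the strain labels. *fip1* and *fio1* code for the permease and the oxidase of the high-affinity iron uptake system, and *str3* for a transporter of iron bound to siderophores. *fip1* (SPAC1F7.07c) had 66.2, 64.7 and 320.2 TPM in the wild type, against 469, 380.4 and 1010.0 with the label *tup11∆/tup12∆* and 754, 1073 and 1917 with the label *tup11∆/tup12∆/php5∆*. *fio1* (SPAC1F7.08) had 12.8, 13.5 and 59.3 TPM in the wild type, against 118, 71.1 and 219 with the label *tup11∆/tup12∆* and 181, 256 and 331 with the label *tup11∆/tup12∆/php5∆*. *str3* (SPAC1F8.03c) had 9.31, 10.9 and 87.2 TPM in the wild type, against 114, 111 and 318 with the label *tup11∆/tup12∆* and 198, 402 and 533 with the label *tup11∆/tup12∆/php5∆*. All 3 were thus higher in rich medium in both mutant labels than in nitrogen-starved wild-type cells, and all 3 had their highest value in the nitrogen starvation library labelled *tup11∆/tup12∆/php5∆*. Within the label *tup11∆/tup12∆* their ratios of nitrogen starvation to rich medium were among the 5 smallest, at 2.16-fold for *fip1*, 1.86-fold (1.82 to 1.90) for *fio1* and 2.79-fold (2.73 to 2.85) for *str3*, with *hht3* at 2.46 and SPCC417.03 at 2.68. The minimal medium held a defined amount of iron salt, and no iron level of the media or cells was measured here, so a part of iron supply was not tested.

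**Figure D3:**
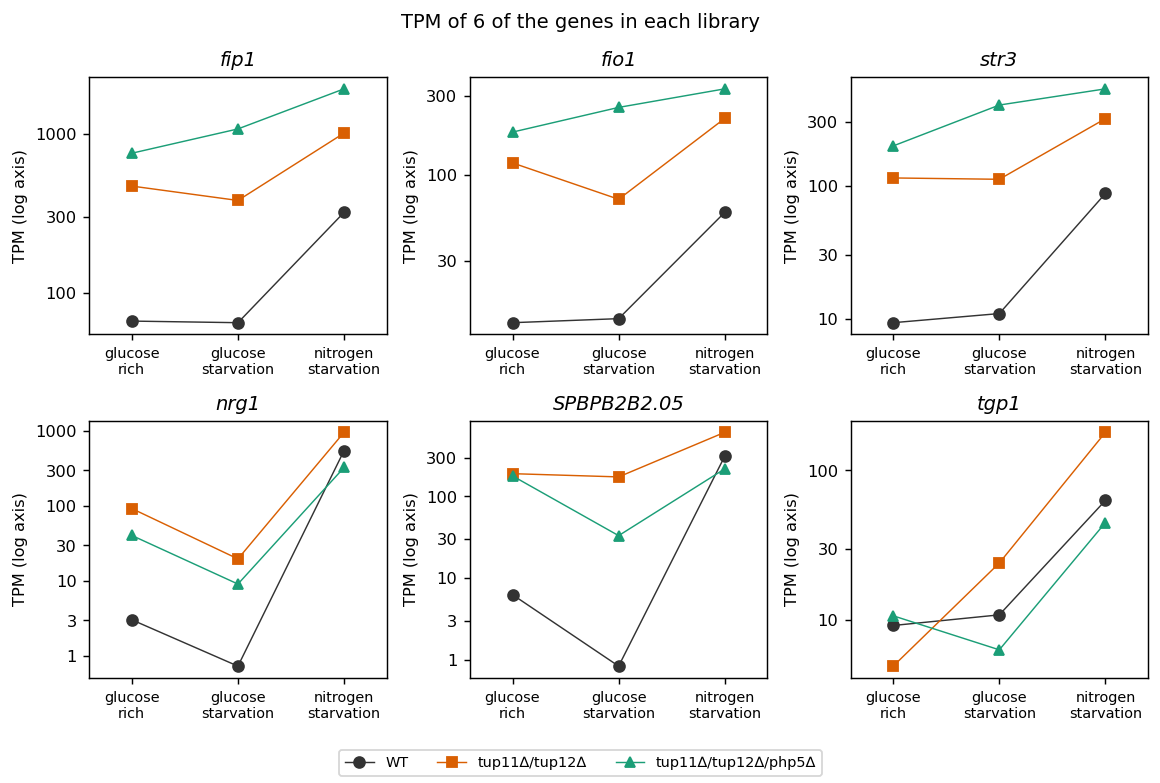
TPM (vertical log axes, which differ between panels) of 6 genes in the 3 media (horizontal axis), with lines joining the libraries of 1 strain label. *fip1*, *fio1* and *str3* keep the order wild type, *tup11∆/tup12∆*, *tup11∆/tup12∆/php5∆* in every medium. In rich medium and under glucose starvation, *nrg1* and SPBPB2B2.05 are higher in both mutant labels than in the wild type. *tgp1* is highest in the nitrogen starvation library labelled *tup11∆/tup12∆*, at 179.7 TPM.

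The other 8 genes have diverse or uncertain roles. *hht3* (SPBC1105.11c), for histone H3, had 1581, 1755 and 6776 TPM in the wild type, against 1423, 2234 and 3506 with the label *tup11∆/tup12∆* and 1811, 3581 and 3367 with the label *tup11∆/tup12∆/php5∆*. It was the gene with the highest level in every library outside nitrogen starvation. *tad2* (SPBC16D10.10), for a subunit of the deaminase that edits adenosine 34 of tRNA, had 59.6, 53.4 and 929.8 TPM in the wild type, against 52.1, 51.5 and 485 with the label *tup11∆/tup12∆* and 54.5, 34.7 and 234 with the label *tup11∆/tup12∆/php5∆*. *cfh4* (SPBC3E7.12c), for a chitin synthase regulatory factor, had 122, 120.2 and 598 TPM in the wild type, against 111, 73.4 and 555 with the label *tup11∆/tup12∆* and 138, 189.6 and 426 with the label *tup11∆/tup12∆/php5∆*. Nitrogen starvation gave the highest value of the 3 media in every strain label for *tad2* and *cfh4*, and for *hht3* in all but the label *tup11∆/tup12∆/php5∆*.

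*mug131* (SPBC1861.06c) and SPBC1861.05, a carbohydrate kinase gene, lie on opposite strands, with *mug131* wholly inside the transcript of SPBC1861.05. Their coding sequences, at II:4142843-4144144 and II:4140551-4142794, do not overlap each other. *mug131* had 25.05, 21.8 and 527 TPM in the wild type, against 17.7, 15.7 and 312 with the label *tup11∆/tup12∆* and 24.4, 7.23 and 141 with the label *tup11∆/tup12∆/php5∆*. SPBC1861.05 had 19.3, 21.4 and 428 TPM in the wild type, against 15.03, 13.0 and 308 with the label *tup11∆/tup12∆* and 17.1, 7.97 and 121 with the label *tup11∆/tup12∆/php5∆*. Because the libraries do not keep the strand, reads counted for *mug131* cannot be told apart from those of the SPBC1861.05 transcript. The coding sequence of SPBC1861.05 meets the *mug131* transcript only at its end. It is covered to 90.6% by that transcript and a noncoding one together. SPAC806.06c, for nicotinamide mononucleotide adenylyltransferase, which makes the cofactor NAD, went from 71.1 to 449.5 TPM in wild-type cells and from 63.2 to 169 TPM in the label *tup11∆/tup12∆/php5∆*. *rid1* (SPBC1709.12), for a GTPase-binding protein, went from 27.1 to 129 TPM and from 36.1 to 66.3 TPM in the same comparisons. SPCC417.03, an uncharacterized protein gene, went from 15.7 to 75.7 TPM and from 10.97 to 15.3 TPM, the last ratio having an interval from 1.06 to 1.84.

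Glucose starvation was next examined in the libraries the rule did not use. In the label *tup11∆/tup12∆*, 2 of 27 genes were over 2-fold higher than in rich medium, against 17.7% of all features, and 5 were over 2-fold lower, against 12.7%. The 2 higher were *tgp1* and *uck2*, the latter at 3.04-fold (2.82 to 3.27). The 5 lower were *nrg1* at 0.213, *fur4* at 0.392, *ura6* at 0.394, SPAC323.07c at 0.441 and *rid1* at 0.451. The median log2 ratio was −0.30 for the 27 genes and 0.14 for all features. In the label *tup11∆/tup12∆/php5∆*, 1 gene was over 2-fold higher, against 8.57% of all features, and 15 were over 2-fold lower, against 37.4%, with medians of −1.05 and −0.62. The 1 higher gene was *str3*, at 2.03-fold (2.00 to 2.06), and the lowest ratio was 0.181 (0.172 to 0.191) for SPCC965.13. That library is the one that stood apart. With the libraries scaled by median-of-ratios size factors, which set a typical gene's ratio near 1, the 27-gene median there became −0.40 and the all-feature median, over 4810 features averaging 10 TPM or more, moved from −0.67 to −0.01.

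**Figure D4:**
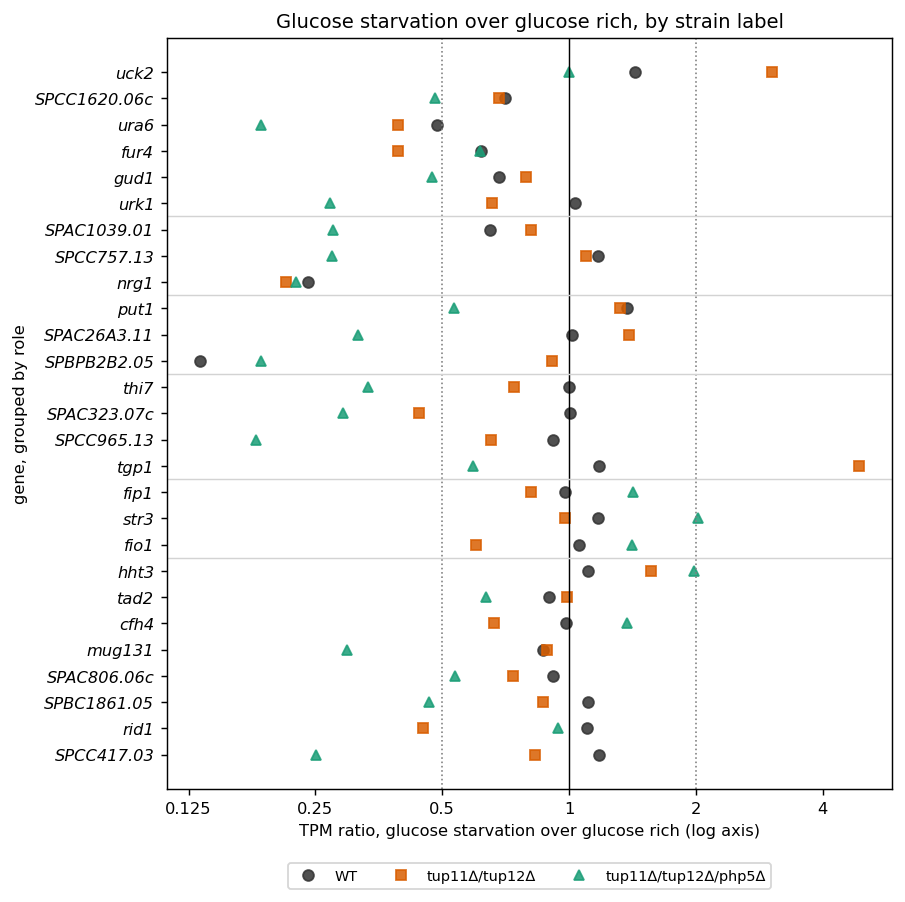
Each row is a gene, grouped by role, and each point the ratio of its TPM under glucose starvation to that under glucose rich conditions for 1 strain label (horizontal log axis, dotted lines at 0.5 and 2). Points of the wild type stay below 1.5 by the rule, *tgp1* and *uck2* of the label *tup11∆/tup12∆* lie right of 2, and 15 points of the label *tup11∆/tup12∆/php5∆* lie left of 0.5.

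The nearest set for comparison holds the genes that met the same nitrogen limits in wild-type cells but stood at or above the glucose starvation limit. There were 153 of them, and no limit on the label *tup11∆/tup12∆* was set for them. In the label *tup11∆/tup12∆* under glucose starvation, 87 of the 153 (56.9%) were over 2-fold higher than in rich medium. The 27 had 2 (7.41%), and all features 17.7%. The sets were split on glucose starvation of the wild type, where 138 of the 153 and 0 of the 27 were over 2-fold higher. A difference under glucose starvation was thus favoured in advance, and nothing is read from it. Nitrogen starvation in the label *tup11∆/tup12∆/php5∆* put 142 of the 153 (92.8%) over 2-fold higher, against 20 of the 27 (74.1%) and 15% of all features. With 1 library a condition this difference was not tested.

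The label *tup11∆/tup12∆* was then set against the wild type. In rich medium 5 of 27 genes exceeded the wild type over 2-fold, against 4.43% of all features, and 0 were over 2-fold lower, against 2.42%. They were *nrg1* at 30.5-fold (27.5 to 34.0), SPBPB2B2.05 at 30.4-fold (27.2 to 34.1), *str3* at 12.2-fold (11.5 to 13.0), *fio1* at 9.26-fold (8.79 to 9.75) and *fip1* at 7.075-fold (6.87 to 7.28). Noncoding transcripts on the other strand cover 99.9% of the coding sequence of *nrg1* and 66.8% of that of SPBPB2B2.05. Because the libraries do not keep the strand, reads of these 2 genes cannot be told apart from those of such transcripts. The other 22 genes ran from 0.535 for *tgp1* to 1.82 for SPAC323.07c, and *fur4* and *ura6* were the next lowest at 0.603 and 0.640. The wild-type rich library set a limit in the rule, so values low there were favoured. Under glucose starvation the same comparison gave 6 genes over 2-fold higher, against 5.24% of all features, and 2 over 2-fold lower, against 6.88%. The 6 were the same 5 genes, with SPBPB2B2.05 at 208-fold (147 to 307), and *tgp1* at 2.22. The lower pair was *fur4* at 0.382 and *rid1* at 0.478. Without nitrogen 4 genes exceeded the wild type over 2-fold, against 5.6% of all features, namely *fio1* at 3.70, *str3* at 3.65, *fip1* at 3.15 and *tgp1* at 2.85, and 0 were over 2-fold lower, against 5.58%. The median log2 ratio there was −0.45 for the 27 genes and 0.01 for all features, although genes at or below 0.5 had been left out by the rule.

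The additional *php5* label went with lower values under nitrogen starvation. Of 27 genes, 14 were over 2-fold lower in the nitrogen starvation library labelled *tup11∆/tup12∆/php5∆* than in that labelled *tup11∆/tup12∆*, against 3.66% of all features, and 0 were over 2-fold higher, against 4.98%. The median log2 ratio was −1.04 for the 27 genes and −0.09 for all features. For the 7 genes without an overlapping transcript, whose reads can be assigned without strand, it was −0.42. The lowest were SPAC323.07c at 0.129, SPCC757.13 at 0.167, SPAC26A3.11 at 0.207 (0.201 to 0.213) and *tgp1* at 0.249 (0.240 to 0.260). The highest were *fip1* at 1.90 (1.88 to 1.92), *str3* at 1.67, *fio1* at 1.51 and *hht3* at 0.961, so the 3 iron genes were the only ones above 1. Because the library labelled *tup11∆/tup12∆* had to stay above a limit under the rule, values high there were favoured in part. In the set of 153 genes, without that limit, 34 (22.2%) were over 2-fold lower in the same comparison. Against wild-type cells, whose library also entered the rule, 19 of 27 genes were over 2-fold lower in the label *tup11∆/tup12∆/php5∆*, against 5.35% of all features, and 3, the iron genes, were over 2-fold higher, against 6.84%.

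In rich medium the same pair of labels differed little. There, 1 gene was over 2-fold higher in the label *tup11∆/tup12∆/php5∆*, against 5.69% of all features, and 2 were over 2-fold lower, against 2.2%. These were *tgp1* at 2.17 (1.95 to 2.42), SPAC323.07c at 0.399 and *nrg1* at 0.438, and neither library entered the rule. The median log2 ratio was 0.14 for the 27 genes and 0.11 for all features. With size factors *tgp1* was at 1.94, so that 0 genes were over 2-fold higher, and the median was −0.02. Under glucose starvation, 5 genes were over 2-fold higher in the label *tup11∆/tup12∆/php5∆*, against 6.26% of all features, and 14 over 2-fold lower, against 33.9%, with medians of −0.99 and −0.57. With size factors the 14 became 7 and the median of the 27 genes −0.34. The all-feature median, over 4810 features averaging 10 TPM or more, then moved from −0.62 to 0.03. The share of all features beside the 7 was not computed with that scaling. The higher genes were *str3* at 3.61, *fio1* at 3.59, *fip1* at 2.82, *cfh4* at 2.58 and *rid1* at 2.39, and the lowest were SPCC757.13 at 0.175, SPBPB2B2.05 at 0.191, SPCC417.03 at 0.213 and SPAC26A3.11 at 0.238.

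**Figure D5:**
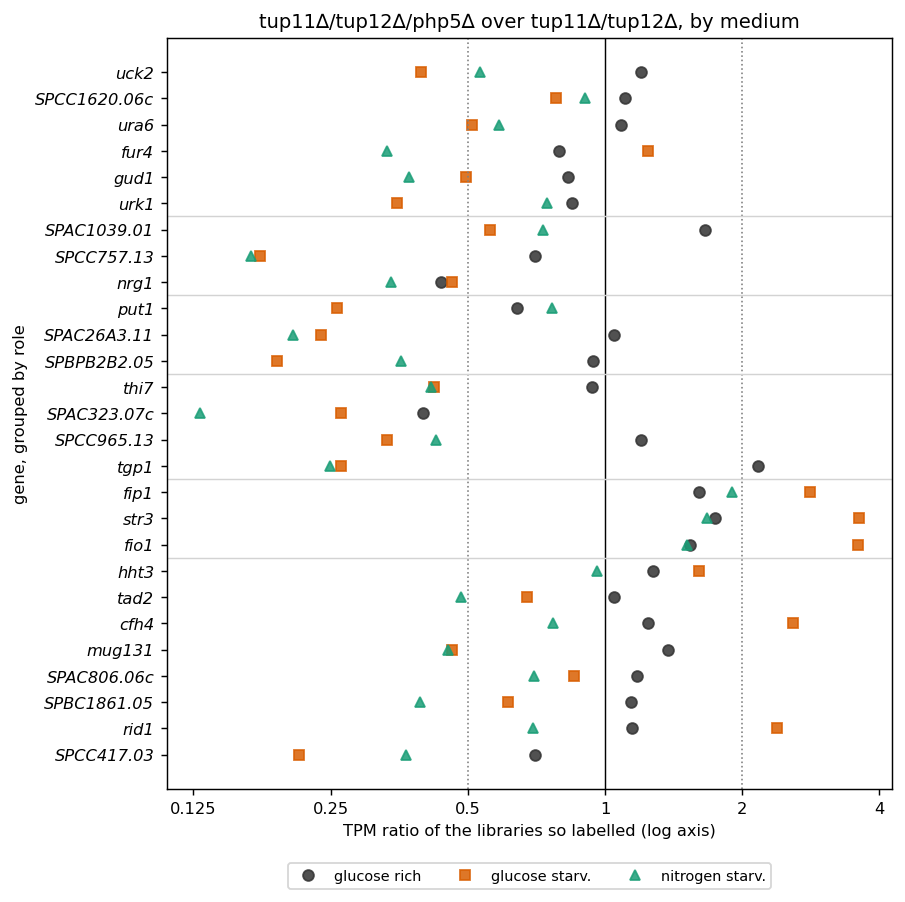
Each row is a gene, grouped by role, and each point the ratio of its TPM with the label *tup11∆/tup12∆/php5∆* to that with the label *tup11∆/tup12∆* in 1 medium (horizontal log axis, dotted lines at 0.5 and 2). Nitrogen starvation points (triangles) lie left of 1 for 24 genes, down to 0.129, and right of 1 for *fip1*, *str3* and *fio1*, while rich medium points (circles) lie between 0.399 and 2.17.

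How alike the genes are was described by the Pearson correlation of log2(TPM + 1) over the 9 libraries with the median profile of all 27. The 9 values share 3 strains, and each gene adds to the median it is compared with. The correlation was highest for *gud1* (0.995) and *thi7* (0.993) and lowest for *fio1* (0.275), *str3* (0.317), *fip1* (0.331), SPBPB2B2.05 (0.628) and *hht3* (0.668). Between genes, *fip1* correlated with its neighbour *fio1* at 0.994 and with *str3*, elsewhere on the chromosome, at 0.995. The neighbours *uck2* and *fur4* correlated at 0.924. Outside the set, the 5 features most like the median profile were SPAC11D3.03c (0.983), *mac1* (0.977), *prs5* (0.973), *mfs1* (0.968) and SPAC750.02c (0.968). *prs5*, a second ribose-phosphate pyrophosphokinase gene, had 206, 128 and 2164 TPM in the wild type and failed only the limit on the label *tup11∆/tup12∆*, with 976 TPM. SPAC750.02c had at most 0.0385 TPM in any library and therefore carries no pattern of weight.

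On the genome, 9 of the 27 genes lie on chromosome I, 10 on II and 8 on III, where all protein-coding genes have 45.6%, 36.5% and 17.9%. Within 100 kb of a chromosome end lie 4 genes, *str3*, *nrg1*, SPBPB2B2.05 and SPCC757.13, against 3.70% of 5113 genes. Adjoining pairs numbered 3. *uck2* (I:1840621-1841283, + strand) and *fur4* (I:1841908-1844003, − strand) point towards each other across 624 bases, *fip1* (I:4232998-4234768, − strand) and *fio1* (I:4235072-4237874, + strand) point away from each other across 303 bases, and SPBC1861.05 (II:4140249-4144368) overlaps *mug131* (II:4142680-4144144). Coding sequence of 20 of the 27 genes is overlapped by another annotated transcript, against 81.6% of all genes, and 7 are covered wholly (SPAC806.06c, SPAC26A3.11, SPAC1039.01, *mug131*, *gud1*, SPCC417.03 and SPCC1620.06c). Without strand, reads of such a gene and of its partner cannot be told apart. For *nrg1* the overlapped share is 99.9% and for *tgp1* 82.7%, the latter in part by a noncoding transcript on the same strand. The 7 genes with no such overlap were *uck2*, *fip1*, *hht3*, *ura6*, *urk1*, SPCC965.13 and *put1*. No stretch of 50 bases from the coding sequence of any of the 27 occurs elsewhere in the genome.

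At the edges of the rule, *fio1* (59.3 TPM) and *tgp1* (63.0 TPM) were nearest above the level limit, and *map2* (43.2 TPM), a pheromone gene, and SPAPB18E9.04c (26.04 TPM) nearest below it. At the 4-fold limit *hht3* (4.29) and *ura6* (4.63) were inside and *gcv1* (3.74) and *rga5* (3.64) outside. At the glucose limit *uck2* (1.44) and *put1* (1.37) were inside and *mmt1* (1.53) and *cho1* (1.57) outside. At the limit on the label *tup11∆/tup12∆*, *put1* (0.507) and *hht3* (0.517) were inside and SPAC922.09 and SPAC1039.02 (both 0.489) outside. SPAC1039.02 is the next systematic name after SPAC1039.01 and went from 99.5 to 9894 TPM in wild-type cells.

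Other genes of nitrogen metabolism were taken from lists by symbol, which leave out members without a place on them, such as the permease genes SPAC1039.01, SPCC757.13 and *nrg1*. The set holds 27 of 5323 features, so lists of this length say little about its overlap with them. Of a list of nitrogen transport genes, 19 were found in the table, 1 of them (*fur4*) in the set and 5 among those left out in advance. Nitrogen starvation of the wild type had 12 of the 19 over 2-fold higher and 4 over 2-fold lower, against 19.6% and 10.5% of all features, and glucose starvation 5 over 2-fold higher, against 19.1%. In the label *tup11∆/tup12∆/php5∆* 9 were over 2-fold higher and 0 lower under nitrogen starvation, against 15% and 6.84%, with a median log2 ratio of 0.86 against 0.24 for all features. Of 15 nitrogen use genes, with *put1* as the only one in the set, nitrogen starvation had 10 over 2-fold higher and 1 lower in the wild type, and 9 higher and 1 lower in the label *tup11∆/tup12∆/php5∆*. Glucose starvation of the wild type had 6 of these 15 over 2-fold higher and 3 lower, against 19.1% and 9.86% of all features. The autophagy list, with 0 of 30 genes in the set, had 23 over 2-fold higher in the wild type without nitrogen and 22 without glucose.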

How the data were processed

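Poly(A) RNA of 9 cultures was sequenced in libraries that do not keep the strand. Per the labels and the submitters' processing notes, the authors used fastp, HISAT2, SAMtools and featureCounts with the ASM294v2 build. Versions were not given in the sources used here. The authors deposited TPM per feature together with each feature's length in bases, a column of the kind other. There were 0 per-sample columns left unused. Reads were recovered as TPM times length in steps of 1 read, and 100% of values came out whole within a tolerance of 0.01. The floor of 3 reads equals 0.0395 to 0.0702 TPM at the median length. Amplified reads are not independent molecules, so intervals cover counting error only.

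All 5323 features entered each comparison. Genes counted as higher or lower passed a ratio of 2 in TPM, with no filter on low values, and log2 ratios used a pseudocount of 1. With 1 library per group no test was run; an additive fit of strain and medium over the 9 libraries, which averages each difference over the other factor, was not used. The rule, the members, the lists and the alternatives were chosen with earlier results of these data known. Named were the genes with the highest level or ratio, those next to each limit, those adjoining another member, those on a list and those with a stated role, which together covered all 27. Positions and promoters come from RefSeq ASM294v3. For 2740 of 2740 genes with a single coding exon, the ends in the table and in RefSeq were the same, and 7 features had no match. The ratios were checked on simulated data. Figures were drawn with matplotlib 3.10.9, and values computed with pandas 2.3.3, numpy 2.4.6 and scipy 1.17.1 under Python 3.11.15.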

Additional observations from a re-analysis of the deposited data

Results flagged for a closer look

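*tgp1* was the only gene of the 27 whose ratio between strain labels lay over 2-fold in opposite directions between media. Relative to the library labelled *tup11∆/tup12∆*, the library labelled *tup11∆/tup12∆/php5∆* had 2.17 times its TPM in rich medium, 0.263 times without glucose and 0.249 times without nitrogen. With size factors the rich medium ratio was 1.94, no longer over 2-fold, while the others were 0.417 and 0.274, and with a common upper quartile it was 2.06. With 1 library a condition the difference between media was not tested. In this search 4 contrasts were screened, and the rich medium value rests on a level of 4.92 TPM in the library labelled *tup11∆/tup12∆*.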

How the results depend on the processing

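Of 190 alternatives over 36 results, 156 were counted as leaving the value unmoved and 34 as moving it. The count allowed wide shifts of a median, so unmoved does not mean close. Counted as unmoved, the median for label *tup11∆/tup12∆/php5∆* over label *tup11∆/tup12∆* under nitrogen starvation went from −1.04 to −0.42 without overlapping transcripts. Under glucose starvation the median for these labels went from −0.99 to −0.34 with size factors, also counted as unmoved. The sign changes given next counted as unmoved too. Of 9 medians over the 27 genes, 2 that lie near 0 changed sign. In rich medium, label *tup11∆/tup12∆* over wild type went from −0.08 to 0.11 with size factors and 0.08 with a common upper quartile, and label *tup11∆/tup12∆/php5∆* over label *tup11∆/tup12∆* from 0.14 to −0.02 with size factors. The number of genes in the set was 44 with a 3-fold limit, 14 with an 8-fold limit, 42 without the limit on the label *tup11∆/tup12∆* and 12 with that limit at 0.75. With size factors it stayed at 27, of which 22 were shared with the reported set (*fio1*, *hht3*, *tad2*, *ura6* and *put1* left), and with a common upper quartile it was 24, of which 20 were shared. Under nitrogen starvation, label *tup11∆/tup12∆/php5∆* over label *tup11∆/tup12∆*, 3 genes were higher at 1.5-fold and 1 with size factors or a common upper quartile, and 5 were lower at 3-fold. Under glucose starvation the same labels gave 2 higher and 8 lower at 3-fold, and 7 and 8 lower with size factors and the upper quartile. In rich medium they gave 5 higher at 1.5-fold, 0 at 3-fold and 0 with size factors, and 0 lower at 3-fold. Glucose starvation over rich medium gave 9 lower at 1.5-fold and 1 at 3-fold in the label *tup11∆/tup12∆*. In the label *tup11∆/tup12∆/php5∆* the median log2 ratio was −0.40 with size factors, and 2, 0, 5, 2 and 2 genes were higher at 1.5-fold, at 3-fold, with size factors, with the upper quartile and without the 10 most abundant features. Label *tup11∆/tup12∆* over wild type gave 3 lower at 1.5-fold in rich medium, and under nitrogen starvation 9 lower at 1.5-fold, 3 with size factors and 5 with the upper quartile. Changed folds and limits alter these counts by construction, and for the scalings the cause was not tested. On the strand of the gene only, GATAAG was in 3 promoters (11.1%, against 4.81% of all) and the CCAAT box in 4 (14.8%, against 25.0%), below the share of all promoters where both strands had it slightly above. The Ste11, forkhead and cAMP element cores were then in 0, against 4.44%, 7.24% and 3.31%. No paired analysis was possible because each group has 1 library and so no replicate number is shared by more than 1 pair; an additive fit of strain and medium over the 9 libraries was not run. Each value rests on at least 31 reads. Depth still limited ratios that rest on few reads, such as those of SPBPB2B2.05 and SPCC417.03, whose intervals were wide. The spread between cultures is unknown.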

Other observations

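Lists of genes for other parts of the starvation response held 0 of the 27 genes, but the set is 27 of 5323 features, and 6 mating genes, 1 meiosis gene and 1 vacuolar protease gene were among those left out in advance. Over all features, 19.6% were over 2-fold higher in the wild type without nitrogen and 10.5% over 2-fold lower. Without glucose 19.1% were higher and 9.86% lower. Of 29 mating and pheromone genes, 12 were over 2-fold higher in the wild type without nitrogen and 11 without glucose, and in the label *tup11∆/tup12∆/php5∆* without nitrogen 5, where all features had 15%. Of 37 meiosis genes, the wild type had 18 higher and 1 lower without nitrogen, and 15 higher and 2 lower without glucose. Of 15 core stress genes, 7 were higher without nitrogen and 11 without glucose, and of 7 vacuolar protease genes 4 and 5. Of 17 cell cycle genes 5 were higher under nitrogen starvation and 4 under glucose starvation. Of 27 nutrient signalling genes 4 were higher and 1 lower under nitrogen starvation, and 6 were higher under glucose starvation.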
